A study of Mus musculus with 12 samples.

Results

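The genes described here are 34 markers of the nonparenchymal cells of the liver, measured in whole-liver RNA. They comprise 12 macrophage markers, 11 endothelial markers and 11 stellate cell markers, out of 18193 genes that the array covers by at least 1 probe set naming no other gene. The members were given as a list of gene symbols, and each was found through the probe sets whose platform annotation names that gene alone. All 34 had such a probe set (61 in all), and 18 of them had several.

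The study set genetic against pharmacological activation of the transcription factor Nrf2 in mouse liver. All 12 mice were 9-week-old males of C57BL/6J background, and 1 array was hybridised per liver. Conditional Keap1 knockout mice, here CKO, were Albumin-Cre:Keap1(flox/-), and the mice labelled WT were genetic controls that carried Albumin-Cre with Keap1(flox/+), so that every mouse had the Cre transgene and at least 1 floxed allele. Mice of both genotypes were given either vehicle (10% Cremophor-EL and 10% DMSO in PBS) or CDDO-Im, a triterpenoid made by synthesis, at 30 umol/kg by gavage, and livers were taken 6 h later. Each of the 4 groups held 3 mice. By the labels, WT mice given vehicle are replicates 1, 2 and 3, CKO mice given vehicle are 3, 4 and 5, and both CDDO-Im groups are 2, 3 and 4. The labels do not say whether the mice of a group were littermates, so p-values measure the spread between these livers only.

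Hepatocytes make up the parenchyma of the liver. Around them, Kupffer cells are the resident macrophages that take up particles and old red cells from the blood, sinusoidal endothelial cells form a fenestrated wall rich in scavenger receptors, and stellate cells store vitamin A and make matrix. The albumin promoter drives Cre in cells of the hepatocyte lineage, so the macrophage, endothelial and stellate compartments are those in which Cre was not meant to act. The null allele of the CKO mice is, however, carried by every cell of the animal. The drug was given to the whole animal and could act on any cell. Keap1 holds Nrf2 at a low level in most cell types, and Nrf2 drives genes of antioxidant defence.

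The values are GCRMA signals on a log2 scale, in which a probe set without signal sits at a floor near 2.22, and the number of arrays limits their precision. One Keap1 probe set read 7.92 to 8.89 on the 6 WT arrays and 2.74 to 3.31 on the 6 CKO arrays. A second one was closer, at 6.58 to 8.08 against 6.15 to 6.51, still without overlap. The position of these probe sets within Keap1 is not known here, so they check the labels only as far as they cover the deleted exons. All 18 hepatocyte marker genes with a probe set were above a signal of 5 on all 12 arrays. Under the limma test below, 1 of them (Tdo2) was called higher in CKO vehicle livers and in WT CDDO-Im livers. Averaged over treatments it was also called higher in CKO livers. These shares of 5.56% stand beside 6.51%, 3.65% and 10.6% of all genes tested. Leaving out 1 array removed the Tdo2 calls in 3, 5 and 9 of 12 fits. Of 18 tested Nrf2 target genes, 13 were called higher by the same test in CKO vehicle livers, against 3.25% of all genes tested. In WT CDDO-Im livers 15 were called higher, against 1.88%.

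Testing required a log2 signal over 5 on 3 arrays or more, which 28 of the 34 markers reached: 10 of 12 macrophage, 10 of 11 endothelial and 8 of 11 stellate markers. Changes are log2 differences of group means ± SE from 1 limma model over 8338 genes, and a gene was called at a Benjamini-Hochberg adjusted p under 0.05 over all of them. The other 6 markers were too dim to test. Cd68, a lysosomal membrane protein of macrophages, read 2.74 to 4.58 and Pecam1, an adhesion protein of all endothelium, 2.96 to 3.71. Among the stellate markers Col1a1, the main chain of type I collagen, read 3.40 to 4.77, Hgf, hepatocyte growth factor, 2.96 to 3.50, and Des, the intermediate filament desmin, sat at 2.22 on every array. Timd4, a phosphatidylserine receptor of resident macrophages, read 5.57 in WT vehicle replicate 1 and 3.97 to 4.31 on the other 11 arrays. In bulk liver a marker's signal joins the number of cells and the RNA per cell, and fewer cells of a type cannot be told apart from less RNA in each.

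Few of the tested markers moved. Between the vehicle groups 3 of 28 were called (Marco and Lyve1 higher and Reln lower in CKO livers), against 6.51% of all genes tested (3.25% higher and 3.26% lower). In WT livers 1 of 28 was called after CDDO-Im (Lyve1, higher), against 3.65% of all genes (1.88% higher and 1.76% lower). In CKO livers none of the 28 was called after CDDO-Im, and limma called 0% of all genes there, where 790 genes and 3 of the markers (Lyve1, Reln and Rgs5) had an unadjusted p under 0.05. Between the CDDO-Im groups none of the 28 was called, against 1.54%, and 2 (Lyve1 and Stab1) had an unadjusted p under 0.05. Averaged over treatments, 2 of 28 differed by genotype (Lyve1 and Marco, both higher in CKO livers), against 10.6% (5.09% higher and 5.47% lower). Averaged over genotypes 1 of 28 differed by treatment (Lyve1, higher after CDDO-Im), against 2.46% (1.2% higher and 1.26% lower). The comparisons share groups, WT vehicle in particular, and are not independent of each other. With 0 to 3 calls among 28 markers, these shares are near those of all genes. Groups did not overlap for 3 markers between the vehicle groups (26.3% of all genes), 5 in WT livers after CDDO-Im (23.3%), 2 in CKO livers after CDDO-Im (14.6%) and 5 between the CDDO-Im groups (22.7%).

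**Figure D1:**
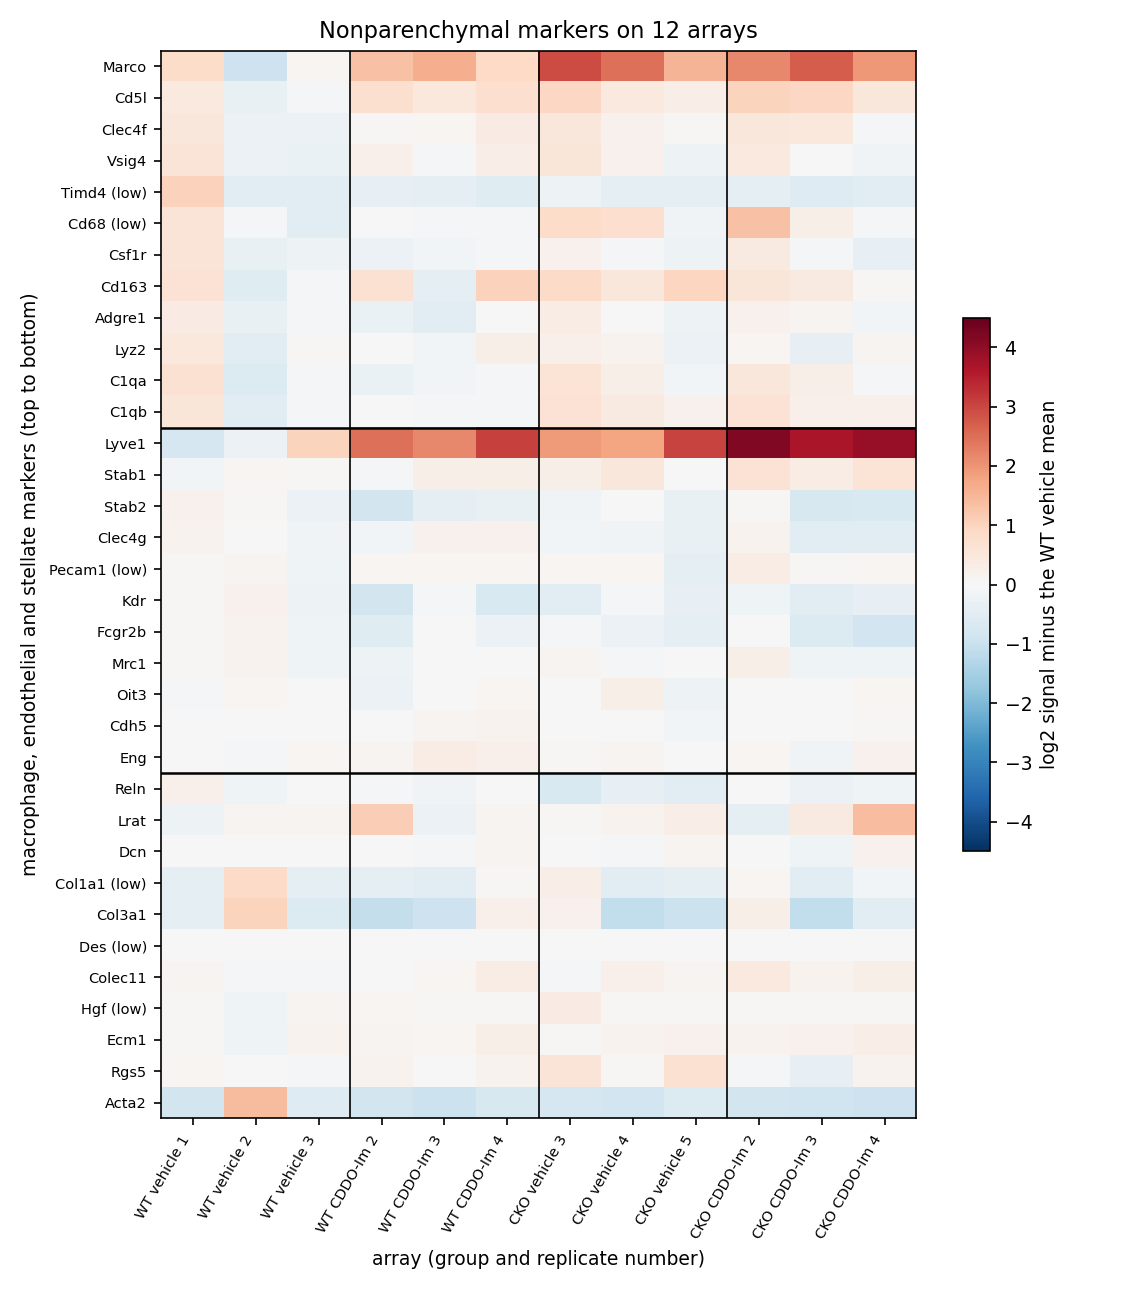
Log2 signal of the 34 markers on each of the 12 arrays, as the difference from the mean of the 3 WT vehicle arrays (colour scale, red higher, blue lower), with macrophage, endothelial and stellate markers from top to bottom and markers too dim to test given as low. Lyve1 and Marco are red on all CKO and CDDO-Im arrays, and Acta2 is high on WT vehicle replicate 2 alone.

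Marco, a scavenger receptor of macrophages that binds bacteria and particles, was the macrophage marker that moved. WT livers gave signals of 5.70, 3.95 and 4.95 under vehicle and of 6.19, 6.50 and 5.76 under CDDO-Im. CKO livers gave 7.79, 7.34 and 6.38 under vehicle and 7.02, 7.58 and 6.82 under CDDO-Im. Every liver of the other 3 groups was above every WT vehicle liver, and every CKO liver but CKO vehicle replicate 5 was above the highest WT liver of either treatment. Marco rose by 2.30 ± 0.46 in CKO vehicle livers (limma adjusted p = 0.0151), and the groups did not overlap. The WT vehicle signals of 3.95 and 4.95 were below the filter level of 5, so the size of this change rests partly on dim signals. After CDDO-Im in WT livers the difference was 1.28 ± 0.46, which did not pass the test (adjusted p = 0.1535), and within the CKO genotype it was -0.03 ± 0.46. Between the CDDO-Im groups it was 0.996 ± 0.46 (adjusted p = 0.304), and averaged over treatments CKO livers were higher by 1.65 ± 0.32 (adjusted p = 0.0114).

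The call between the vehicle groups was lost without CKO vehicle replicate 3 (1.99, adjusted p = 0.0654), with no filter on low signal (adjusted p = 0.0797) and with only these groups in the fit (adjusted p = 0.0980). The call averaged over treatments held in all 12 fits that left out 1 array (highest adjusted p 0.0303) and was lost with no filter (adjusted p = 0.0566). The second Marco probe set spanned less, at 5.21 to 5.77 in WT vehicle livers and 5.87 to 6.96 in CKO vehicle livers. With every probe set tested on its own, it rose by 0.63 ± 0.17 in CKO livers averaged over treatments (adjusted p = 0.0443), and its difference of 0.75 ± 0.24 between the vehicle groups did not pass (adjusted p = 0.0996). The 2 Marco probe sets thus gave changes of unequal size in the same direction.

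The promoter of Marco is shown because Marco is the called macrophage marker whose start site is in the sequence table used here (RefSeq, GRCm38.p6). It lies on the minus strand at chr1:120504975-120505274, and the 50 bases after the annotated start are in capitals.
Marco: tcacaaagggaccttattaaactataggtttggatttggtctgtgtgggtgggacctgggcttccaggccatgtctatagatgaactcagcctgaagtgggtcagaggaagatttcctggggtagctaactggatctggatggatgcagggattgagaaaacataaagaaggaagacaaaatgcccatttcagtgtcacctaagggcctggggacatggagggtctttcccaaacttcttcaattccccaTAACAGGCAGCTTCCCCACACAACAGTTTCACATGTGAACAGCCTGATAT

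The other 9 tested macrophage markers were not called in any of the 7 comparisons. Between the vehicle groups their differences ran from -0.04 (Csf1r, the receptor for the macrophage growth factor CSF1) to 0.78 (Cd163, the receptor for haemoglobin bound to haptoglobin), and the 95% interval of 7 of the 9 lay within a 2-fold change either way. Cd163 read 6.74, 5.54 and 5.99 in WT livers given vehicle, against 6.95, 6.61 and 7.05 in their CKO counterparts (adjusted p = 0.2545). Csf1r read 12.27, 11.35 and 11.47 against 11.91, 11.60 and 11.47. Its less bright probe sets, tested on their own, differed by 0.10 ± 0.19 and 0.24 ± 0.14, so the sign of its difference depends on the probe set. In both genes the lowest signal of the WT vehicle group was that of replicate 2. Cd5l, a secreted macrophage protein that binds lipids and microbes, read 11.52, 10.75 and 11.02 in WT livers given vehicle, against 11.80, 11.58 and 11.85 in WT livers given the drug, which did not overlap. Its difference of 0.65 ± 0.22 did not pass the test (adjusted p = 0.134). In CKO livers Cd5l read 12.01, 11.55 and 11.40 with vehicle and 12.10, 12.03 and 11.62 with the drug.

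The remaining macrophage markers differed by 0.41 or less between the vehicle groups. Clec4f, a galactose-binding lectin that mouse Kupffer cells carry, differed by 0.25 ± 0.23 between the vehicle groups, and Vsig4, a complement receptor, by 0.17 ± 0.27. Adgre1, the F4/80 antigen, differed by 0.03 ± 0.20, and Lyz2, lysozyme, by 0.05 ± 0.24. C1qa and C1qb, which encode chains of the first complement component, differed by 0.26 ± 0.29 and 0.41 ± 0.23. Between the CDDO-Im groups C1qa and C1qb did not overlap, with CKO livers higher by 0.42 ± 0.29 (adjusted p = 0.501) and 0.40 ± 0.23 (adjusted p = 0.401), neither called. The less bright C1qb probe sets, tested on their own, differed there by 0.12 ± 0.21 and 0.06 ± 0.19, with overlap. On each array Marco was set beside the mean of the other 9 tested macrophage markers, both counted from their WT vehicle means. Marco was higher by 2.92, 2.48 and 1.51 in the CKO vehicle group, where the 9 others were higher by 0.54, 0.23 and 0.05. In the CKO CDDO-Im group it was higher by 2.16, 2.72 and 1.96 and the others by 0.48, 0.23 and 0.03. On each of these 6 arrays the difference of Marco was larger than the mean of the others. Marco was picked as the called marker with the largest difference in these same arrays, so this outcome follows from the choice and is no test.

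**Figure D2:**
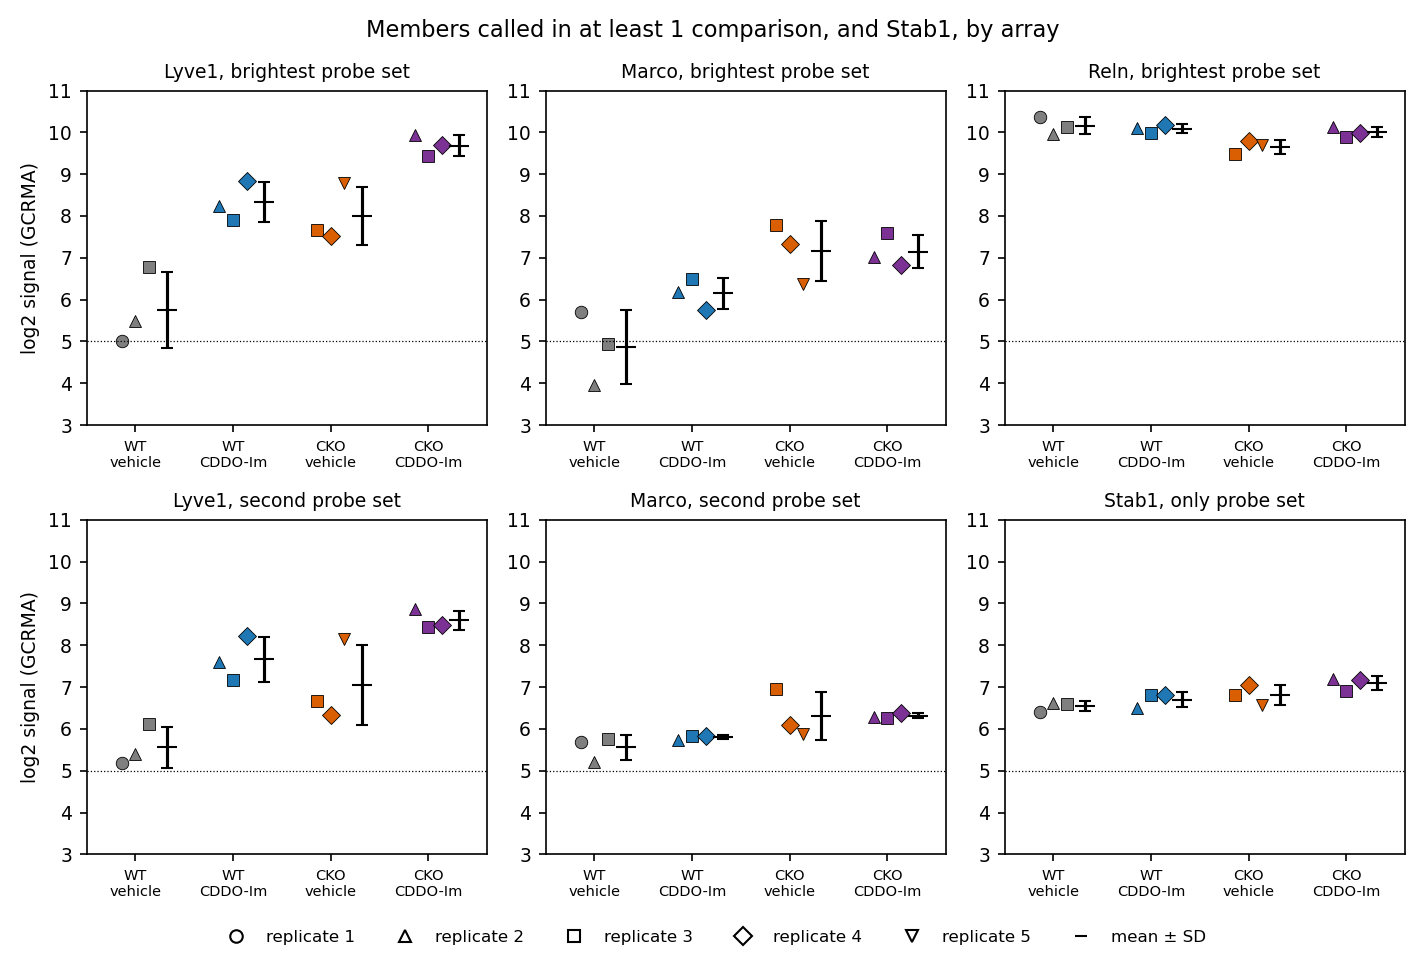
Log2 signal of Lyve1, Marco and Reln on each array, with the second probe set of Lyve1 and Marco, and of Stab1 for comparison (points, 1 per liver, marker shape by replicate number; bar, mean ± SD of 3; dotted line, signal of 5). The 3 WT vehicle livers are below all others for both Lyve1 probe sets and for the brighter Marco probe set.

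The 3 WT vehicle livers differed among themselves in the signal of the tested macrophage markers. Replicate 1 was above the mean of the other 2 for 10 of 10 tested macrophage markers, by a median of 0.84, and it had the highest signal of all 12 arrays for 6 of them. Its C1qa signal was 11.14 against 9.87 and 10.40, and Timd4, which failed the filter, was above 5 on this array only. Replicate 2 was below the mean of the other 2 for 10 of 10, with a median difference of -0.61. CKO vehicle replicate 3 was above its group for 10 of 10, by a median of 0.41. The pattern was weaker among 18 further macrophage genes, described below. There WT vehicle replicate 1 was above for 15 (median 0.51), WT vehicle replicate 2 below for 14 (median -0.07) and CKO vehicle replicate 3 above for 13 (median 0.19). In the same livers the 18 hepatocyte markers had median deviations of 0.03, 0.01 and -0.04. Most hepatocyte markers were far brighter than the macrophage markers (Alb read 15.79 to 15.93), so these medians do not compare like signals. Single hepatocyte markers spread more widely around them. They ran from -0.13 (Hnf4a) to 1.42 (Pck1) in WT vehicle replicate 1 and from -0.77 (Ass1) to 0.45 (G6pc) in WT vehicle replicate 2. Pck1 (1.42 and -0.64) and Ass1 (1.12 and -0.77) were high in replicate 1 and low in replicate 2, like the macrophage markers. G6pc was high in both (0.62 and 0.45). Of the 18, 10 were above and 8 below in replicate 1, and 9 were above and 9 below in replicate 2. The part of the macrophage spread in the results was not tested, but each call was refitted without each of these arrays. Without WT vehicle replicate 1 the Marco difference between the vehicle groups was 2.72, and without replicate 2 it was 1.85, both called. C1qb, not called with all arrays (0.41 ± 0.16 averaged over treatments, adjusted p = 0.132), passed without WT vehicle replicate 1 (0.54, adjusted p = 0.0256). Its less bright probe sets each differed by 0.18 averaged over treatments, with all arrays.

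**Figure D3:**
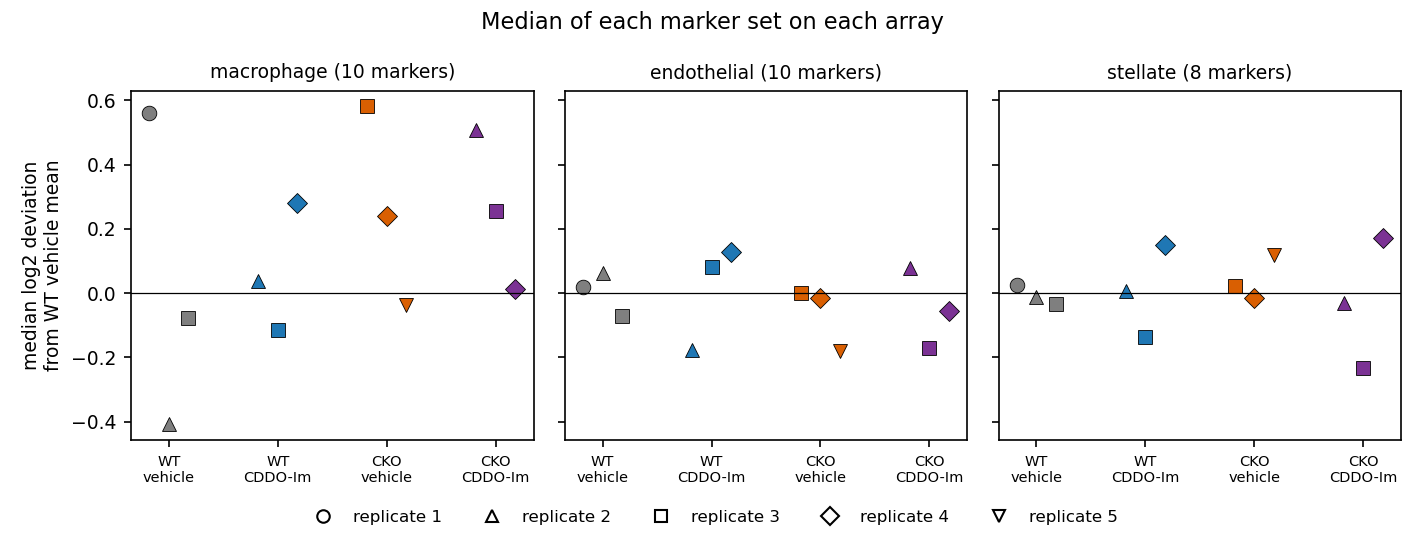
Median, over the tested markers of each set, of the log2 difference from the WT vehicle mean on each array (points, 1 per liver, marker shape by replicate number). The macrophage medians run from -0.41 to 0.56 within WT vehicle livers alone, and the endothelial and stellate medians stay between -0.23 and 0.17 on all 12 arrays.

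Of 24 further macrophage genes, 18 were tested and 1 (5.56%) was called between the vehicle groups, in WT livers after CDDO-Im and in the genotype average, against 6.51%, 3.65% and 10.6% of all genes, so these shares are near the background. Slc11a1, a metal transporter of the macrophage phagosome, read 8.43, 7.44 and 7.76 under vehicle in WT mice and 8.68 to 9.26 on the other 9 arrays, with no overlap. It rose by 0.92 ± 0.21 in CKO vehicle livers (adjusted p = 0.0287) and by 0.91 ± 0.21 in WT CDDO-Im livers (adjusted p = 0.0409). It also rose by 0.61 ± 0.15 averaged over treatments (adjusted p = 0.0261). Leaving out 1 array removed these calls in 4, 11 and 6 of the 12 fits, with adjusted p up to 0.106, 0.112 and 0.0665. The first was lost without WT vehicle replicate 2 or 3 or CKO vehicle replicate 3 or 5, the second in every fit but that without WT vehicle replicate 1, and the third was highest without CKO vehicle replicate 3. The median difference of the 18 between the vehicle groups was 0.14, beside 0.26 for the 10 members and -0.01 over all genes tested.

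Lyve1 was the endothelial marker that moved. It encodes a hyaluronan receptor known from lymphatic and liver sinusoidal endothelium, and some tissue macrophages carry it too. WT livers gave signals of 5.01, 5.49 and 6.77 under vehicle and of 8.25, 7.91 and 8.84 under CDDO-Im. CKO livers gave 7.67, 7.52 and 8.79 under vehicle and 9.93, 9.43 and 9.69 under CDDO-Im. The WT vehicle livers were lowest without overlap, the CKO CDDO-Im livers highest without overlap, and the other 2 groups lay between them and overlapped. Lyve1 rose by 2.24 ± 0.46 in CKO vehicle livers (4.71-fold, adjusted p = 0.01765) and by 2.57 ± 0.46 in WT livers after CDDO-Im (5.96-fold, adjusted p = 0.015).

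In CKO livers the Lyve1 difference after CDDO-Im was 1.69 ± 0.46, with no overlap (adjusted p = 0.388), in a comparison where no gene passed. Between the CDDO-Im groups it was 1.35 ± 0.46, again without overlap (adjusted p = 0.178). Averaged over treatments CKO livers were higher by 1.79 ± 0.32 (adjusted p = 0.00772), and averaged over genotypes CDDO-Im livers were higher by 2.13 ± 0.32 (adjusted p = 0.00928). By size of change Lyve1 stood 8th of 8338 genes in the treatment average and 54th in the genotype average. It stood 52nd between the vehicle groups and 76th between the CDDO-Im groups. After CDDO-Im it stood 12th in WT livers and 15th in CKO livers. The interaction of genotype and treatment, which is the drug difference in CKO livers minus that in WT livers, was -0.89 ± 0.65 (95% interval -2.32 to 0.55, adjusted p = 0.687).

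With no filter on low signal the adjusted p of Lyve1 was 0.088 in CKO vehicle livers and 0.0775 in WT livers after CDDO-Im, and with only the compared groups in the fit it was 0.106 and 0.0899, so that both calls were lost. The treatment average was lost with no filter too (adjusted p = 0.0600). Both averaged Lyve1 calls held in all 12 fits that left out 1 array, with a highest adjusted p of 0.0235 for genotype and 0.0325 for treatment. The CKO vehicle call was lost without WT vehicle replicate 1 (1.86, adjusted p = 0.0630), WT vehicle replicate 2 (2.10, adjusted p = 0.0600) or CKO vehicle replicate 5 (1.84, adjusted p = 0.0559). The WT CDDO-Im call was lost without WT vehicle replicate 2 (2.44, adjusted p = 0.0563) or WT CDDO-Im replicate 4 (2.32, adjusted p = 0.0713). A second Lyve1 probe set read 5.18, 5.40 and 6.12 under vehicle and 7.59, 7.16 and 8.23 under CDDO-Im in WT livers. CKO livers read 6.68, 6.33 and 8.14 and, with the drug, 8.86, 8.43 and 8.50, which gave the same order of group means. Tested on its own it rose after CDDO-Im in WT livers by 2.10 ± 0.44 (adjusted p = 0.0299) and by 1.82 ± 0.31 averaged over genotypes (adjusted p = 0.0172). Its difference of 1.48 ± 0.44 between the vehicle groups did not pass (adjusted p = 0.078), and its genotype average of 1.21 ± 0.31 did (adjusted p = 0.0383).

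The other 9 tested endothelial markers were not called in any comparison, and between the vehicle groups the 95% interval of all 9 lay within a 2-fold change either way. Set beside Lyve1 on the same arrays, their mean differed from its WT vehicle level by 0.12, -0.25 and -0.18 in CKO CDDO-Im livers, where Lyve1 was higher by 4.17, 3.67 and 3.93. Lyve1 was picked as the called marker and this is its highest group, so the contrast follows from the choice and is no test. Stab1 and Stab2, scavenger receptors of sinusoidal endothelium, of which Stab2 takes up hyaluronan, were not called. Stab1 read 6.42, 6.63 and 6.60 under vehicle in WT mice and 7.19, 6.89 and 7.18 under the drug in CKO mice, and its genotype average of 0.32 ± 0.10 fell short of the threshold (adjusted p = 0.0707). It passed without CKO vehicle replicate 5 (0.38, adjusted p = 0.0361). Stab2 read 9.78, 9.62 and 9.32 in WT livers given vehicle, against 8.75, 9.14 and 9.24 in WT livers given the drug, which did not overlap, with a difference of -0.53 ± 0.22 (adjusted p = 0.214).

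Kdr, the main receptor for vascular endothelial growth factor, differed by -0.53 ± 0.19 in WT livers after CDDO-Im (adjusted p = 0.16). Without WT CDDO-Im replicate 3, the highest of its group, it passed (-0.75, adjusted p = 0.0489). Clec4g, a lectin of sinusoidal endothelium, read 10.74, 10.59 and 10.45 under vehicle and 10.47, 10.77 and 10.77 under CDDO-Im in WT livers, and 10.46, 10.43 and 10.24 and then 10.76, 10.10 and 10.08 in CKO livers. Its genotype average of -0.29 ± 0.12 did not pass (adjusted p = 0.167) with all arrays and passed without CKO CDDO-Im replicate 2 (-0.40, adjusted p = 0.0199). Fcgr2b, an inhibitory Fc receptor, read 9.88, 10.01 and 9.64 under vehicle and 9.30, 9.83 and 9.58 under CDDO-Im in WT livers, and 9.77, 9.58 and 9.45 and then 9.84, 9.24 and 9.00 in CKO livers. The groups of both genes overlapped in each genotype. Mrc1, the mannose receptor, read 9.24 to 9.75, Oit3, a secreted protein of sinusoidal endothelium, 8.14 to 8.66, and Eng, a TGF-beta co-receptor, 8.99 to 9.49. Fcgr2b, Mrc1, Oit3 and Eng were not called in any comparison. Eng was higher in WT livers after CDDO-Im without overlap, by 0.24 ± 0.10 (limma adjusted p = 0.209). Cdh5, the junction protein VE-cadherin, gave the same value of 6.13 on 8 of 12 arrays and carries little information.

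**Figure D4:**
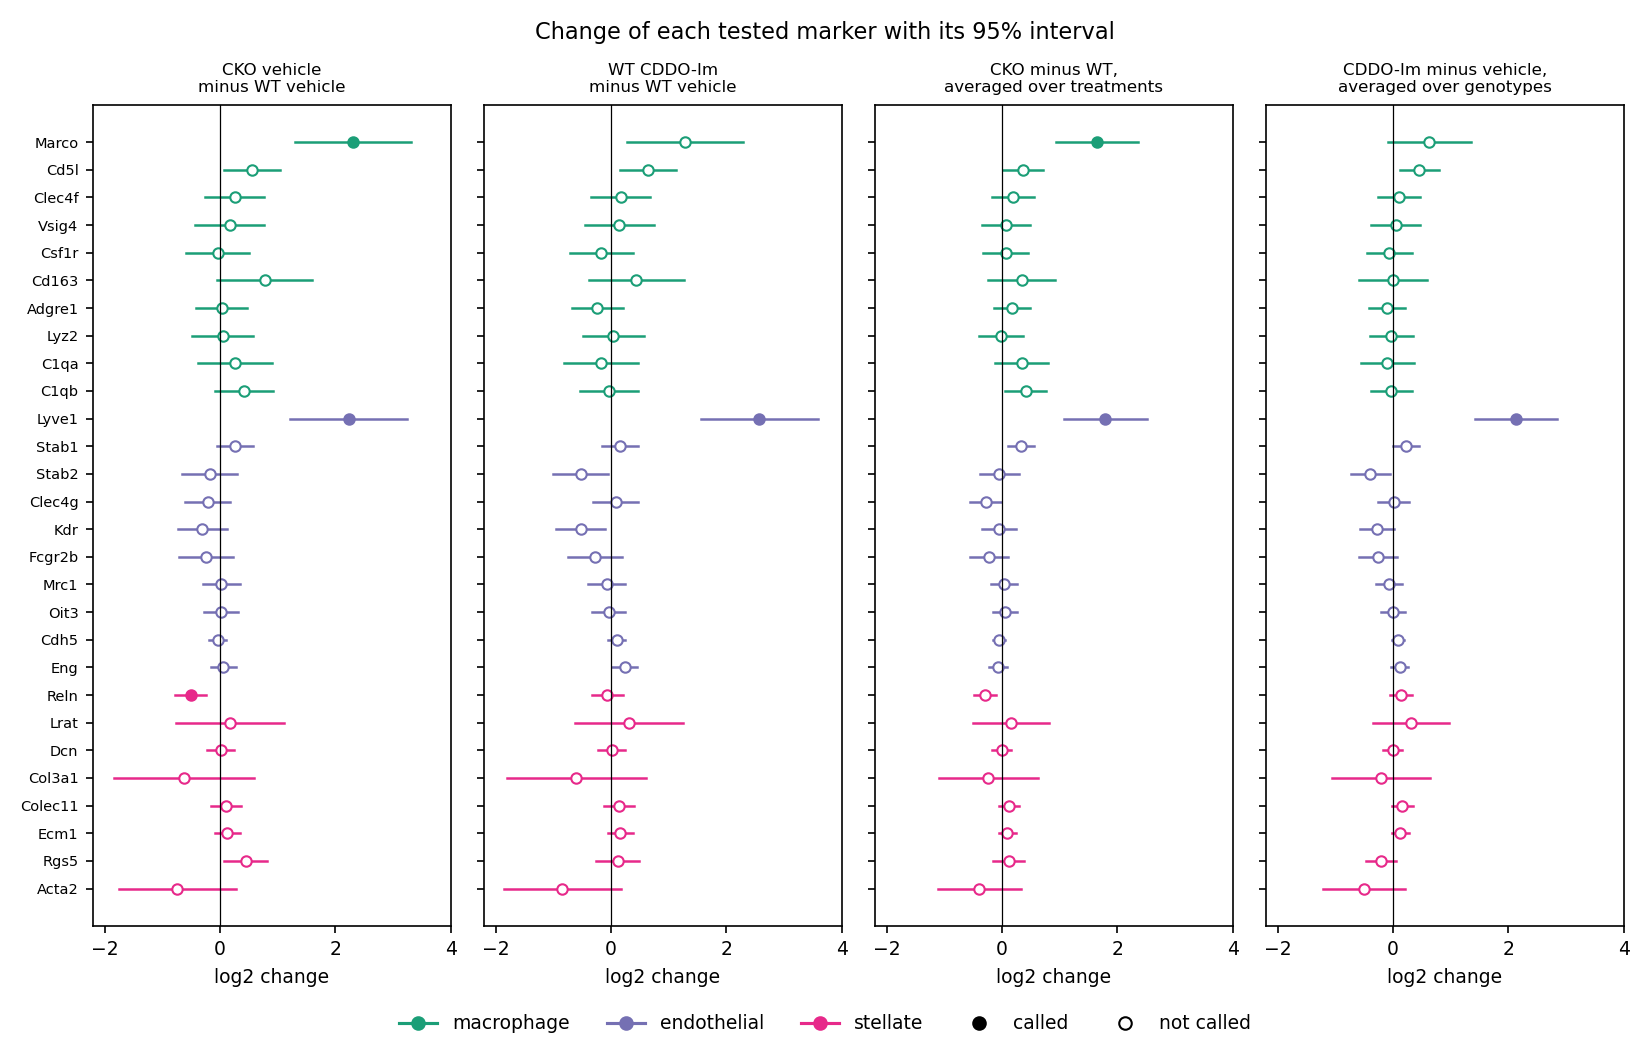
Log2 change of each of the 28 tested markers (points, filled where called at adjusted p under 0.05) with its 95% interval (lines) in 4 comparisons, coloured by set. Marco and Lyve1 stand at 2.30 and 2.24 between the vehicle groups, Lyve1 alone is called in WT livers after CDDO-Im, and most other intervals span 0.

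Of 30 further endothelial genes 23 were tested. In WT livers after CDDO-Im 3 of them (13%) were called, against 3.65% of all genes. Bmp2, a growth factor from sinusoidal endothelium that controls hepcidin in hepatocytes, read 7.21, 7.27 and 7.13 in WT livers given vehicle, against 7.85, 7.92 and 8.08 in WT livers given the drug. It rose by 0.75 ± 0.10 (adjusted p = 0.00399). In CKO livers it read 7.58, 7.65 and 7.44 with vehicle and 8.06, 8.09 and 8.36 with the drug, again without overlap, and over both genotypes it rose by 0.68 ± 0.07 (adjusted p = 0.00264). Both Bmp2 calls held in all 12 fits without 1 array, with a highest adjusted p of 0.0218 and 0.00836. Its order of groups, with WT vehicle lowest and CKO CDDO-Im highest, was that of Lyve1. Bmp2 also rose by 0.29 ± 0.07 with genotype (adjusted p = 0.0299), a call lost in 7 of 12 such fits (adjusted p up to 0.0694, without CKO vehicle replicate 3).

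Esam, an adhesion molecule of endothelial junctions, rose by 0.71 ± 0.16 in WT livers after CDDO-Im (adjusted p = 0.0404) and by 0.62 ± 0.11 over both genotypes (adjusted p = 0.0212). Robo4, an endothelial guidance receptor, rose by 0.55 ± 0.11 over both genotypes (adjusted p = 0.0289). Nrp1, a co-receptor for vascular growth factors, fell by 0.80 ± 0.15 on the log2 scale in WT livers (adjusted p = 0.0213), from 10.29, 10.35 and 10.32 to 9.41, 9.75 and 9.38. Leaving out 1 array removed the Esam calls in 9 and 2 of 12 fits, the Robo4 call in 7 and the Nrp1 call in 4, with adjusted p up to 0.1445 and 0.0634, 0.0764 and 0.0896. The highest values for WT livers came without WT CDDO-Im replicate 4 and those over both genotypes without CKO vehicle replicate 3. The median change of the 23 in WT livers was -0.10, beside 0.02 for the 10 members and -0.02 over all genes tested.

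Reln was the called stellate marker, between the vehicle groups and in no other comparison. It encodes reelin, a large secreted glycoprotein that stellate cells make in the liver. WT livers gave signals of 10.37, 9.96 and 10.14 under vehicle and of 10.11, 9.99 and 10.18 under CDDO-Im. CKO livers gave 9.47, 9.79 and 9.69 under vehicle and 10.13, 9.90 and 9.97 under CDDO-Im. All 3 CKO vehicle livers were below the other 9. Reln fell by 0.51 ± 0.12 on the log2 scale between the vehicle groups (1.42-fold lower, adjusted p = 0.0348). After CDDO-Im in CKO livers it was 0.35 ± 0.12 higher, with no overlap but an adjusted p of 0.467, and the interaction was 0.41 ± 0.17 (adjusted p = 0.457). Averaged over treatments the difference was -0.30 ± 0.09 (adjusted p = 0.052).

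The Reln call between the vehicle groups was lost in 6 of 12 fits without 1 array. These were the fits without WT vehicle replicate 1 (-0.40, adjusted p = 0.109) or 3 (-0.52, adjusted p = 0.0694), without CKO vehicle replicate 3 (-0.42, adjusted p = 0.126) or 5 (-0.53, adjusted p = 0.0772), and without WT CDDO-Im replicate 2 (adjusted p = 0.0502) or CKO CDDO-Im replicate 4 (adjusted p = 0.0515). The average over treatments passed without WT vehicle replicate 2 (adjusted p = 0.0320) or CKO vehicle replicate 4 (adjusted p = 0.0499). The call was also lost with no filter on low signal (adjusted p = 0.104), with only the vehicle groups in the fit (adjusted p = 0.128), with arrays centred on their median (adjusted p = 0.0521) and with the mean of the probe sets of a gene (adjusted p = 0.0583). A second Reln probe set sat at the floor of 2.22 on all arrays. The promoter of Reln, on the minus strand at chr5:22344656-22344955 (GRCm38.p6), is shown as that of the called stellate marker, with the 50 bases after the annotated start in capitals.
Reln: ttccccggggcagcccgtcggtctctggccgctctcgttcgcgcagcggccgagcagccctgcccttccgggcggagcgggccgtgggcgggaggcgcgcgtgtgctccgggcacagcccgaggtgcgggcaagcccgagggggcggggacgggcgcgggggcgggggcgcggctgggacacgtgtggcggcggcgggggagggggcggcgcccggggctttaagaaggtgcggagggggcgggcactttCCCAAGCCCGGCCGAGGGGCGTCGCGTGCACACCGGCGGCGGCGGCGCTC

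The other 7 tested stellate markers were not called in any comparison. Dcn, the matrix proteoglycan decorin, read 12.85, 12.87 and 12.85 under vehicle and 12.87, 12.76 and 12.99 under CDDO-Im in WT livers, and 12.86, 12.78 and 12.97 and then 12.83, 12.65 and 13.06 in CKO livers. Its 95% intervals in the 4 comparisons of 2 groups ran from -0.26 to 0.25. Ecm1, an extracellular matrix protein, read 10.89, 10.64 and 10.98 under vehicle and 10.95, 10.94 and 11.10 under CDDO-Im in WT livers, and 10.88, 10.99 and 11.03 and then 10.9996, 11.04 and 11.14 in CKO livers. Neither gene separated vehicle from drug within WT livers. Colec11, a collectin, read 9.56 to 10.07. Lrat, which esterifies retinol for storage as vitamin A, read 6.37 to 8.15. It was highest in WT CDDO-Im replicate 2 (7.87) and CKO CDDO-Im replicate 4 (8.15), and the other 4 drug-treated livers read 6.37 to 7.17, near the vehicle livers.

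Rgs5, a G-protein regulator of pericytes, read 10.60, 10.07 and 10.72 in CKO livers given vehicle, against 9.93, 9.67 and 10.16 in CKO livers given the drug. The drug difference in CKO livers was -0.54 ± 0.17 (adjusted p = 0.42), that between the vehicle groups 0.44 ± 0.17 (adjusted p = 0.147), and the interaction -0.66 ± 0.24 (adjusted p = 0.39), the lowest interaction p among the markers. Without CKO vehicle replicate 4 the vehicle difference passed (0.64, adjusted p = 0.0280). The 4 Rgs5 probe sets did not move alike, since their differences between the vehicle groups were 0.44, 0.62, 1.12 and -0.26.

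Acta2, smooth muscle actin and a marker of contractile and activated stellate cells, read 7.61 in WT vehicle replicate 2 and 5.22 to 5.59 on the other 11 arrays. Its group differences from WT vehicle, -0.74 ± 0.46 in CKO vehicle livers (adjusted p = 0.3785) and -0.84 ± 0.46 in WT CDDO-Im livers (adjusted p = 0.344), were not called and rest on that liver. Col3a1, a chain of fibrillar collagen, was also highest there, at 8.46 against 6.33 to 7.72, and so was Col1a1, at 4.77 against 3.40 to 4.20. Of 30 further stellate genes, 17 were tested and none was called between the vehicle groups or after CDDO-Im in either genotype, where 4, 1 and 0 of them had an unadjusted p under 0.05 in the limma fit. By genotype, averaged over treatments, 2 of the 17 (11.8%) were called, against 10.6% of all genes, which is about the background share. Igfbp3, a binding protein of growth factors, rose by 0.63 ± 0.15 (adjusted p = 0.0265) and Tgfbi, a matrix protein induced by TGF-beta, fell by 0.40 ± 0.09 (adjusted p = 0.0232). Leaving out 1 array removed their calls in 5 and 3 of 12 fits, with adjusted p up to 0.0587 (leaving out WT vehicle replicate 1) and 0.0590 (leaving out CKO vehicle replicate 3).

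WT vehicle replicate 2 also held signals of other cells. Of 10 cholangiocyte genes, 7 had a probe set, and 4 of these stood apart on this array. Krt19 read 5.77 against at most 2.34 elsewhere, Muc1 6.56 against 2.22, Cldn7 5.20 against at most 2.58 and Krt7 3.43 against at most 2.26. Epcam, Cftr and Sox9 did not stand apart. Epcam read 7.39 in WT CDDO-Im replicate 3 and the same value of 7.28 on every other array, so it carries little information. It makes up most of the list sum given below on every array but WT vehicle replicate 2. Cftr sat at the floor of 2.22. Sox9 read 4.07 on this array and 4.76 in WT vehicle replicate 3. The smooth muscle genes Tagln and Myh11, both in the further stellate list, read 6.91 and 4.62 against at most 3.14 and 2.28. Ltf, which encodes lactoferrin, a protein of neutrophil granules and of secretory epithelia, read 7.93 against 2.22. The log2 of the summed linear signal of the cholangiocyte list ran from 7.58 to 8.54 over WT vehicle livers and from 7.58 to 7.69 over the other 3 groups, and 3 of its 7 measured genes were never above 5. That of the neutrophil list ran from 6.34 to 8.35 over WT vehicle livers and from 6.33 to 6.79 over the others, and 8 of its 10 measured genes were never above 5. Ltf was the only gene of the neutrophil list above 5 on WT vehicle replicate 2. The others read 2.22 (Mpo) to 4.28 (Elane) there, and S100a8, at 3.18, was below its 5.03 in CKO vehicle replicate 3.

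On WT vehicle replicate 2, 21 of the 18193 genes were above 5 and at least 2 log2 units above every other array, against 0 to 6 genes on each other array. An example with a wide gap, chosen after their values were seen, was Dmbt1, a mucosal glycoprotein, at 13.00 against at most 2.22. The part of these signals in the comparisons with WT vehicle was not tested. Without this array the counts of called markers were 2 between the vehicle groups, 0 in WT livers after CDDO-Im, 3 in the genotype average and 1 in the treatment average.

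**Figure D5:**
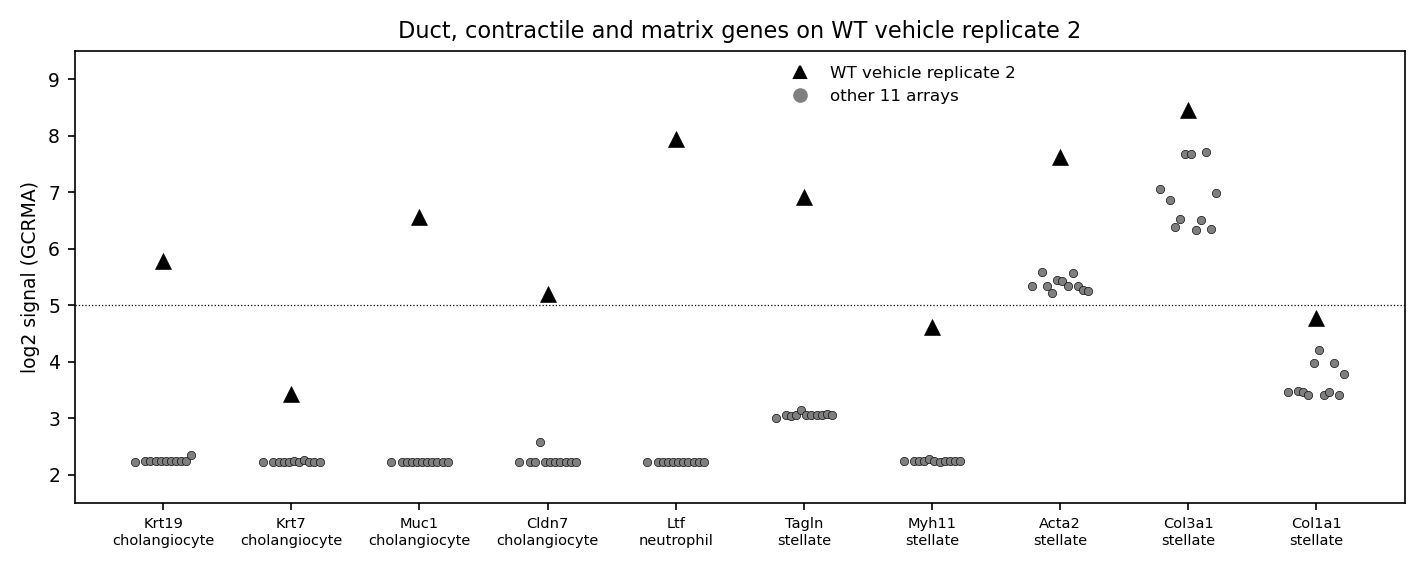
Log2 signal of 10 genes of the cholangiocyte, neutrophil and stellate lists on WT vehicle replicate 2 (triangles) and on the other 11 arrays (circles); the dotted line is a signal of 5. Krt19, Muc1, Cldn7, Ltf and Tagln are above 5 on that array and below it on all others.

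Over the 12 livers the set median of the macrophage markers ran from -0.41 to 0.58, counted from WT vehicle, that of the endothelial markers from -0.18 to 0.13 and that of the stellate markers from -0.23 to 0.17. Between the vehicle groups 9 of 10 macrophage markers were higher in CKO livers, with a median difference of 0.26, against 5 of 10 endothelial markers (median -0.01) and 5 of 8 stellate markers (median 0.06), and over all genes tested 4052 of 8338 were higher (median -0.01). Without WT vehicle replicate 2 the macrophage median was 0.08 and without WT vehicle replicate 1 it was 0.56, so that value rests on which control livers are used. After CDDO-Im in WT livers the medians were 0.09, 0.02 and 0.07, beside -0.02 over all genes, and in CKO livers they were -0.02, -0.02 and 0.13. The macrophage medians changed sign with the array left out, since in WT livers the median was -0.105 without WT vehicle replicate 2 and 0.348 without WT vehicle replicate 1. In CKO livers it was -0.18 without CKO vehicle replicate 5 and 0.164 without CKO vehicle replicate 3. Of the markers not called, the 95% interval lay within a 2-fold change either way for 20 of 25 between the vehicle groups, 20 of 27 in WT livers after CDDO-Im and 22 of 28 in CKO livers after CDDO-Im. A change of 2-fold was thus within reach of the interval of 5, 7 and 6 markers.

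None of the 28 markers showed an interaction of genotype and treatment that passed the test, against 0.276% of all genes tested, and of them 2 (Reln and Rgs5) had an unadjusted p under 0.05. Marco had the most negative estimate, at -1.31 ± 0.64 (95% interval -2.74 to 0.12, adjusted p = 0.529). Of the 18 Nrf2 target genes tested, 8 had a negative interaction that passed, with a median of -1.49 over the 18 and -0.01 over the 28 markers.

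The core of the antioxidant response element, TGACNNNGC, to which Nrf2 binds, was looked for on both strands from 250 bases before to 50 bases after the annotated start, as the only motif searched. Among 32851 mouse promoters 12.4% hold it, and among the 25 markers with an entry it is in 6 (C1qb, Clec4f, Des, Hgf, Kdr and Lyz2). The share counts promoter entries, whereas a marker counts if any of its entries holds the motif, so the measures are not the same. The motif is not in the windows of Marco and Reln printed above. Lyve1, the other called marker, has no entry and could not be searched. The matches of the 4 tested markers are shown on the gene's strand with the motif or its reverse complement in capitals, because none of these genes was called in any comparison. They lie at chr4:136886285-136886313, chr6:83656159-83656187, chr5:75978487-75978515 and chr10:117282244-117282272 (GRCm38.p6, all on the minus strand).
C1qb: aggctggtcaGCGTCGTCAtttacagtaa
Clec4f: ttggatttctGCAGAGTCAgagggaggag
Kdr: ctcccggtaaTGACCCCGCccccattcgc
Lyz2: agccagcagcTGACCCAGCctccagtcac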

How the data were processed

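The deposited table holds log2 signals of 45101 probe sets on 12 mouse arrays, which the authors computed by GCRMA (the submitters' processing notes name version 2.12.1 and R 2.7.0) with settings unknown here. The markers and all gene lists were chosen with earlier results of these data known. Probe sets were named through the platform annotation, in which 34945 name 1 gene, 932 several and 9160 none, and 64 controls were left out. The brightest probe set stood for each of 18193 genes, and 8338 with at least 3 arrays above 5 were tested. A model of 4 group means over all 12 arrays was fitted with limma 3.58.1 in R 4.3.3 (8 residual and 2.32 prior degrees of freedom), and checked on simulated data. P-values were two-sided and Benjamini-Hochberg adjusted over the 8338 genes. Named are all markers: array by array where called, among the 2 brightest of a set by mean signal or largest in change; Stab1, Stab2 and some values of other uncalled markers were added after their values were seen. Also named are the called genes of the further macrophage, endothelial and stellate lists, the called hepatocyte marker Tdo2, Keap1 and Nqo1. Linear folds are given where both means are at least 5. Same-numbered arrays of different groups had correlated deviations of -0.17 to 0.15, so replicate numbers were not taken as pairs. Promoter sequences are RefSeq's (GRCm38.p6). No pair of arrays was identical (0 pairs). Alternatives are in the closing section.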

Additional observations from a re-analysis of the deposited data

Results flagged for a closer look

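Nqo1, a quinone reductase and Nrf2 target used here to check the drug, had a drug effect that differed between genotypes by -3.68 ± 0.49 (interaction, limma adjusted p = 0.0187). It rose by 3.45 in WT livers, from 5.18, 6.53 and 6.96 to 9.86, 9.59 and 9.56, and differed by -0.23 in CKO livers, from 11.04, 11.16 and 11.05 to 10.78, 10.74 and 11.05. In fits leaving out 1 array it lost the call 8 of 12 times, with estimates of -4.04 to -3.16 and adjusted p up to 0.0725 (without CKO CDDO-Im replicate 3). It was lost without any 1 array of the WT CDDO-Im or CKO vehicle groups and without CKO CDDO-Im replicate 2 or 3.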

How the results depend on the processing

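Leaving out arrays for the set medians was chosen after seeing the data. The count of called markers between the vehicle groups was 3, and it was 0 with no filter on low signal, 1 with the replicate block, 0 with only the groups compared in the fit, and 1 to 4 without 1 array. In WT livers after CDDO-Im it was 1, and 0 with no filter, 0 with only the groups compared, and 0 to 2 without 1 array; in the genotype average 2, and 1 with no filter, 1 with all 12 arrays above 5, 1 with the replicate block and 2 to 3 without 1 array; in the treatment average 1, and 0 with no filter, 2 with the replicate block and 1 without any array. With no filter 18193 genes share the adjustment, and with 2 groups 6 arrays. No named marker listed in these alternatives changed direction, but several set medians near 0 changed sign. Same-numbered arrays do not deviate together in every pair (r of 0.078 to 0.146 between the CDDO-Im groups, where all 3 WT arrays correlate best with their own number), so the block is no design fact. With it Marco passed in WT livers (1.84, adjusted p = 0.0179) and Lyve1 did not (2.11, adjusted p = 0.0811), nor did Lyve1 (1.28, adjusted p = 0.299) and Reln (-0.45, adjusted p = 0.235) between the vehicle groups or Lyve1 in the genotype average (1.32, adjusted p = 0.0749). The stellate median after CDDO-Im in CKO livers was 0.13, and 0.0328 with no filter. Without 1 array it ran from -0.0378 to 0.171, in WT livers from -0.0301 to 0.118, between the CDDO-Im groups from -0.0957 to 0.0709, in the genotype average from -0.0651 to 0.0697 and for the interaction from -0.041 to 0.1722. The endothelial median between the CDDO-Im groups ran from -0.0902 to 0.1144. The macrophage median ran from -0.105 to 0.348 in WT livers after CDDO-Im, from -0.18 to 0.164 in CKO livers, from -0.145 to 0.133 in the treatment average and from -0.37 to 0.0679 for the interaction, and stayed positive between the vehicle groups (0.076 to 0.556), between the CDDO-Im groups (0.0541 to 0.33) and in the genotype average (0.149 to 0.399). Where no construction is named, the cause was not tested.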
